A study of Mus musculus with 30 samples.

Results

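Cells that had lost adherence were compared with cells that were still attached, 48 h after both had been given vesicles of neutrophils exposed to 27-hydroxycholesterol. The comparison rests on 10 of the 29 libraries of the series with counts, 5 non-adherent and 5 adherent, and on 13008 of 39253 genes that were expressed well enough to be tested. The cells are 4T1, a mouse mammary carcinoma line of epithelial origin that spreads readily from the mammary gland, grown in 2D culture in medium with serum depleted of vesicles. Both groups received small extracellular vesicles (sEVs) isolated with a commercial kit from primary Ly6G+ neutrophils of wild-type female BALB/c mice that had been exposed to 10 µM 27-hydroxycholesterol (27HC) for 48 h. 27HC is an oxysterol made from cholesterol. The non-adherent group is the fraction of these cultures that floated, and the adherent group the fraction that stayed on the plate. The same fractions were taken at 72 h (4 non-adherent and 5 adherent libraries). Adherent cells given sEVs of DMSO-exposed neutrophils for 48 h (5 libraries) are quoted as a level, with no test reported. The non-adherent fraction is defined by detachment alone. The series holds no library of cells without vesicles and none of floating cells from DMSO-sEV cultures. Detachment as such and detachment under 27HC-sEVs therefore cannot be told apart.

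Epithelial cells read their attachment through integrins, receptors that bind matrix outside the cell and actin inside it. Attached and spread cells keep the co-activators YAP and TAZ in the nucleus, where they work with TEAD factors on genes such as Ccn1 and Ccn2. Detached epithelial cells commonly die by anoikis, a form of apoptosis in which the BH3-only protein BIM, encoded by Bcl2l11, takes part, and carcinoma cells that undergo an epithelial-mesenchymal transition (EMT) often resist it.

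Depth was similar in the compared groups, 21.0 to 24.7 M estimated reads per library in non-adherent and 19.3 to 24.6 M in adherent cells. The first principal component over the 10 libraries held 67.2% of the variance and parted the groups, with non-adherent libraries from 12.8 to 24.6 and adherent libraries from -28.8 to -14.9. Non-adherent library 4 stood nearest to the adherent cells, at 12.8. Without it 6881 genes passed the test, against 7033 with it. The line's own epithelial markers (Krt8, Krt18, Krt7, Krt14, Epcam and Cdh1) all exceeded 1 CPM, and their sum ran from 2825 to 3035 CPM in non-adherent and from 2937 to 3461 CPM in adherent libraries. CPM are counts per M reads after TMM scaling.

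At 48 h, 3340 genes were higher in non-adherent than in adherent cells (25.7% of those tested) and 3693 were lower (28.4%), together 54.1%, by edgeR's quasi-likelihood test at an adjusted p under 0.05. Most differences were small. Only 328 genes were higher (2.52%) and 150 lower (1.15%) by 2-fold or more, and log2 fold changes had a median of 0.0039 and an interquartile range of -0.26 to 0.25. The 2 groups of libraries did not overlap in 5507 genes (42.3%). Throughout, fold changes are log2 values of non-adherent over adherent cells ± standard error, and CPM are given ± SD with n = 5 in each group. Because so many genes passed, the count of a gene list is read against 25.7% and 28.4%.

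The differences went with transcript length and base composition. Of 12407 genes with a known transcript, the 2485 with the shortest (up to 1913 bases) had a median log2 fold change of -0.27, with 7.4% of genes higher and 48.0% lower in non-adherent cells. In the 2479 with the longest transcripts (5206 bases or more) the median was 0.23, with 51.7% higher and 9.68% lower. By GC content the medians ran from -0.13 in the lowest to 0.13 in the highest of 5 equal bins. Over these genes Spearman's rho between the log2 fold change and length was 0.422, and 0.22 for GC content, given as a description since all genes come from the same 10 libraries. The slopes of single libraries differed by group. For each doubling of length, log2 CPM changed by 0.152 to 0.275 in non-adherent libraries relative to the mean of all libraries, against -0.123 to 0.045 in adherent ones. Offsets per library that remove both dependences (chosen after seeing the data) left 2584 genes higher (20.8%) and 2975 lower (24.0%), and 4035 of 6776 calls (59.5%) held. Of the calls, 819 had the other sign under the offsets, and 102 were called the other way. Whether the dependence arose in the cells or in library preparation was not tested. Counts with the offsets therefore stand beside each list at 48 h, except the markers of other cell types.

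**Figure D1:**
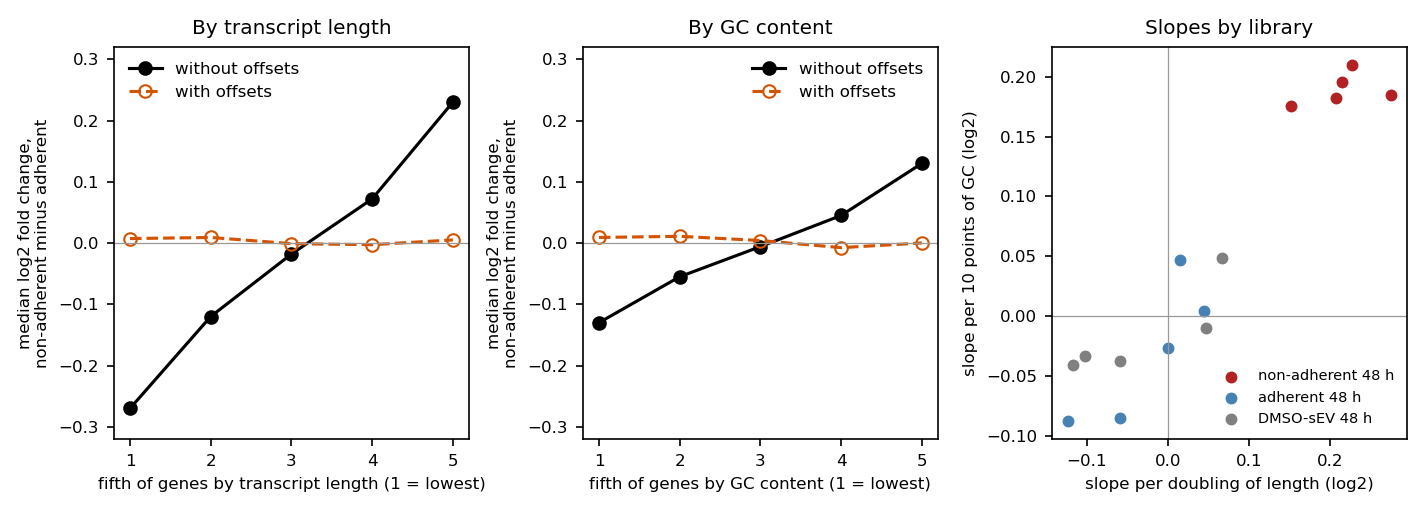
Median log2 fold change of non-adherent over adherent 27HC-sEV cells at 48 h by 5 equal bins of genes, ordered by transcript length (left) and GC content (middle), without and with per-library offsets, and the slope of log2 CPM on length and GC in each library (right; 5 points a group). The medians run from -0.27 to 0.23 over length and from -0.13 to 0.13 over GC content, and the 5 non-adherent libraries lie apart from all adherent ones in both slopes.

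The 12 largest increases with separated groups included genes of receptors, secreted proteins and enzymes. Ace (Entrez 11421), angiotensin-converting enzyme, had 22.7, 27.7, 29.1, 11.1 and 21.9 CPM in non-adherent libraries 1 to 5, against 5.03, 3.58, 3.74, 4.15 and 3.35 CPM in adherent libraries 1 to 5. The groups did not overlap, non-adherent library 4 was the lowest of its group, and the difference was 5.65-fold (2.50 ± 0.20, adjusted p = 9.69e-11). Lcn2 (Entrez 16819), lipocalin-2, which binds siderophores that carry iron, had 63.3, 64.3, 68, 35.3 and 65.3 CPM in non-adherent libraries 1 to 5, against 14.5, 13.6, 11.8, 13.5 and 8.24 CPM in adherent libraries 1 to 5. Library 4 of the non-adherent cells again lay below the other 4, yet all 5 exceeded every adherent library (2.27 ± 0.18, adjusted p = 1.32e-10). Lrp1 (Entrez 16971), an endocytic receptor of many ligands, had 440, 413, 365, 282 and 509 CPM in non-adherent libraries 1 to 5, against 126, 77.9, 100, 111 and 115 CPM in adherent libraries 1 to 5 (1.93 ± 0.17, adjusted p = 4.85e-10). Its transcript is long and the offsets lowered the value to 1.13 (adjusted p = 2.86e-12). The semaphorin Sema6d (Entrez 214968; 2.03 ± 0.13), the organic anion pump Abcc3 (Entrez 76408; 1.92 ± 0.13) and the sialic acid-binding lectin Siglec15 (Entrez 620235; 1.91 ± 0.19) also rose. Prostaglandin E synthase Ptges (Entrez 64292; 1.68 ± 0.12), the hedgehog-binding protein Hhip (Entrez 15245; 1.68 ± 0.14) and the pentraxin Nptx1 (Entrez 18164; 1.68 ± 0.11) rose by somewhat less. The pseudokinase Trib2 (Entrez 217410; 1.63 ± 0.08), the actin-associated synaptopodin gene Synpo (Entrez 104027; 1.56 ± 0.10) and the collagenase Mmp13 (Entrez 17386; 1.52 ± 0.18) completed the set. The adjusted p-values of these 9 genes ran from 2.84e-14 for Trib2 to 1.1e-07 for Mmp13, by edgeR.

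The largest decrease was that of Ccn2 (Entrez 14219), the connective tissue growth factor gene that YAP and TEAD drive. It had 28.6, 27.2, 27.3, 26.1 and 32.3 CPM in non-adherent libraries 1 to 5, against 122, 124, 106, 119 and 122 CPM in adherent libraries 1 to 5. The highest non-adherent library lay far below the lowest adherent one, a difference of 4.19-fold (-2.07 ± 0.10, adjusted p = 5.11e-15). Its mean in DMSO-sEV cells was 509 ± 65.2 CPM. Fgfbp1 (Entrez 14181; -2.05 ± 0.16), a carrier of fibroblast growth factors, and periostin, Postn (Entrez 50706; -1.86 ± 0.14), a matricellular protein, fell nearly as much. Serpinb5 (Entrez 20724), the epithelial serpin maspin, had 10.1, 8.18, 9.37, 10.4 and 9.83 CPM in non-adherent libraries 1 to 5, against 26.3, 29.8, 30.3, 28.4 and 29.1 CPM in adherent libraries 1 to 5 (-1.59 ± 0.09, adjusted p = 1.48e-13). The keratin of basal epithelial cells, Krt14 (Entrez 16664), had 24.5, 23.4, 20.7, 25.4 and 29.6 CPM in non-adherent libraries 1 to 5, against 75.7, 63.2, 58.2, 64.1 and 73.3 CPM in adherent libraries 1 to 5 (-1.44 ± 0.08, adjusted p = 1.27e-13). Neither gene's groups overlapped. The set also held cathepsin W, Ctsw (Entrez 13041; -1.55 ± 0.09), the raft proteolipid Mal (Entrez 17153; -1.48 ± 0.11), the interferon-inducible GTPase Ifi47 (Entrez 15953; -1.38 ± 0.11) and the stress gene Gadd45b (Entrez 17873; -1.32 ± 0.07). Dynap (Entrez 75577; -1.30 ± 0.07), the mitochondrial hypoxia-response gene Bnip3 (Entrez 12176; -1.25 ± 0.13) and Psph (Entrez 100678; -1.23 ± 0.11), the last enzyme of serine synthesis, were lower by at least 2.35-fold. Adjusted p-values of the 12 were 1.55e-09 or less except for Bnip3, at 9.69e-09. All 24 genes kept their direction and their call in all 21 alternatives, the offsets and each left-out library included. They were chosen for large changes with separated groups, so this stability follows in part from the choice.

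**Figure D2:**
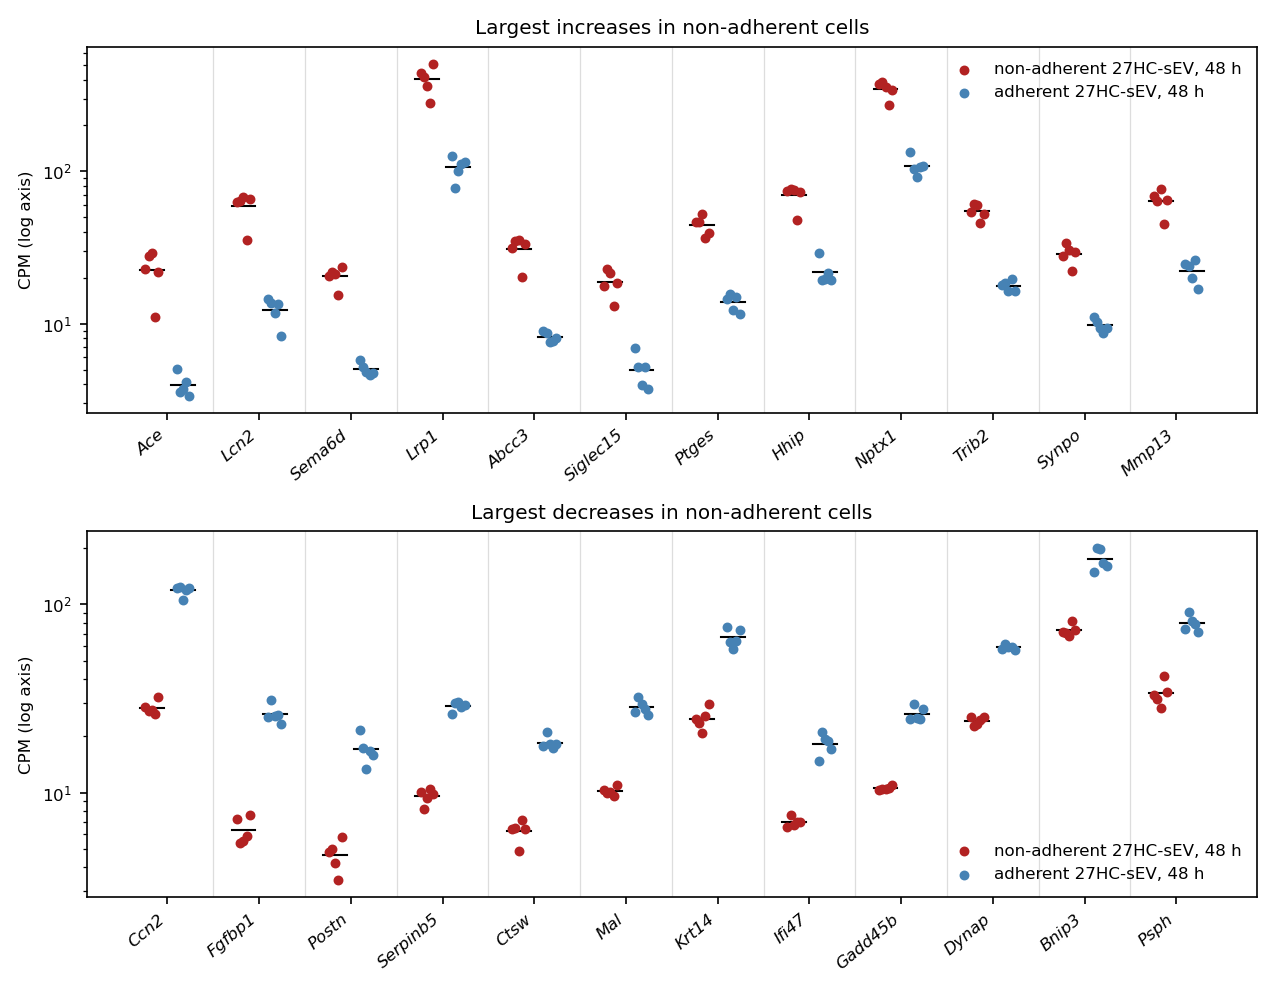
CPM on a log axis of the 12 largest increases (top) and 12 largest decreases (bottom) in 27HC-sEV cells at 48 h, non-adherent libraries left of adherent ones, 5 points a group with the mean as a bar. No gene's groups overlap, since the genes were chosen for that. Non-adherent library 4 is the lowest of its group for Ace at 11.1 CPM and for Lcn2 at 35.3 CPM.

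Genes of attachment moved in both directions. Of 35 tested integrin and focal adhesion genes 17 were higher and 6 lower in non-adherent cells (median 0.24). With the offsets 11 were higher and 11 lower, with a median of 0.04, so the excess of higher genes was not kept under them. Itga1, the α1 chain that binds collagen, had 14.2, 14.6, 15.4, 7.65 and 15.3 CPM in non-adherent libraries 1 to 5, against 3.46, 3, 3.12, 3.27 and 3.43 CPM in adherent libraries 1 to 5. Non-adherent library 4 lay between the other 4 and the adherent cells, and the difference was 2.04 ± 0.16 (adjusted p = 6.03e-11). The focal adhesion protein tensin 4, Tns4 (1.19 ± 0.06, adjusted p = 2.84e-14), had the smallest p of the list. Itgb3, 1.12 ± 0.11, and the hemidesmosome chain Itgb4, 0.93 ± 0.11, rose, with adjusted p-values of 3.87e-09 and 7.87e-08. The epithelial chain Itgb6, which binds latent TGF-beta, had 2.24 to 3.78 CPM in non-adherent libraries, against 7.31 to 9.69 CPM in adherent ones (-1.45 ± 0.12, adjusted p = 9.91e-11). The integrin-linked kinase gene Ilk (-0.38 ± 0.06, adjusted p = 5.21e-06) fell slightly. Itgb1, the chain most integrins share, did not pass the test: 1191 ± 122 CPM in non-adherent and 1283 ± 125 CPM in adherent cells (-0.11 ± 0.12, adjusted p = 0.448).

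Genes that YAP and TEAD are known to drive did not move as one. Of 23 tested targets and partners 8 were higher and 10 lower (median -0.15), and without adherent library 4 the median was -0.027. With the offsets 3 were higher and 11 lower, with a median of -0.15. The classic secreted targets fell. Beside Ccn2, Ccn1, a matricellular ligand of integrins, had 109, 88, 95.5, 96.5 and 109 CPM in non-adherent libraries 1 to 5, against 232, 187, 176, 207 and 172 CPM in adherent libraries 1 to 5. Its groups did not overlap (-0.97 ± 0.11, adjusted p = 6.67e-08), and DMSO-sEV cells held 392 ± 63.2 CPM. Gadd45a (-0.65 ± 0.07, adjusted p = 1.85e-08), a growth arrest gene, fell too. Ankrd1, a sarcomere and nuclear ankyrin protein, had a log2 fold change of -0.33 ± 0.05 (adjusted p = 1.75e-06), and did not pass with the offsets (-0.08, adjusted p = 0.414). The higher members included Wwtr1, which encodes TAZ itself, at 394 ± 13.6 CPM in non-adherent and 276 ± 8.7 CPM in adherent cells (0.51 ± 0.05, adjusted p = 1.25e-09), and the receptor kinase Axl (0.54 ± 0.09, adjusted p = 3.16e-05).

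The start regions of Ccn1 and Ankrd1 are shown because TEAD proteins bind the letters GGAATG, given here in capitals on either strand. They run from 250 bases before to 50 bases after the gene's start, 5′ to 3′ along the gene, from RefSeq on GRCm38.p6. Ankrd1, and below Ifih1 and Trib3, were picked after their values were seen.
Ccn1, chr3:145649936-145650235, minus strand: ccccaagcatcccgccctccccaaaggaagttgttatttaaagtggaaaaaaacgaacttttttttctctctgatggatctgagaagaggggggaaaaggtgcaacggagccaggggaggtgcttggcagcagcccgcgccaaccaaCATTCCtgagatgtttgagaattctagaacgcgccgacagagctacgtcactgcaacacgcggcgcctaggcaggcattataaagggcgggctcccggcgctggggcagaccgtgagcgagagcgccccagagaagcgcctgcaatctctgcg
Ankrd1, chr19:36119795-36120094, minus strand: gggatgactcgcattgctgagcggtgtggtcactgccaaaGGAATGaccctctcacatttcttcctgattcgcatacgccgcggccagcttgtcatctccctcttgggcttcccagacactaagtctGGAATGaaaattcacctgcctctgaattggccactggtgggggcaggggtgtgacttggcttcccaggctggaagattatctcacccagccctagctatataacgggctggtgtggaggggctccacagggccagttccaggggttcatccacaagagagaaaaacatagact
Such windows matched for 16 of the list's tested genes, and 9 of the 16 (56.2%) held GGAATG, as did 14.5% of the 10200 tested genes with a window. The list was made of known targets and partners, so that excess follows from its choice and is no result about the change at 48 h. Among the 8 lower genes with a window, 3 held it, a share no higher than the list's own. A match is a description of letters and not of a bound site.

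Basement membrane genes were mostly higher. Of 18 tested, 13 rose and 0 fell by edgeR (1 at an unadjusted p under 0.05 and 0 by DESeq2), with a median of 0.67. With the offsets 8 were higher and 3 lower, with a median of 0.29, and the list's median transcript length was 6493 bases. The count of lower genes was 1 without adherent library 2 or 3, or without non-adherent library 5. The laminin chain Lama5 was 490 ± 67.7 CPM in non-adherent and 210 ± 22.5 CPM in adherent cells (1.22 ± 0.10, adjusted p = 4.39e-10, with the offsets 0.47). Perlecan, Hspg2 (1.41 ± 0.15, adjusted p = 1.95e-08), had the longest transcript of the named matrix genes and kept 0.47 with the offsets. In the interstitial matrix 11 of 22 tested genes rose and 1 fell (median 0.71). With the offsets 10 were higher and 6 lower, with a median of 0.32. The lysyl oxidase Loxl3 (1.26 ± 0.10, adjusted p = 6.03e-11) and the fibrillar collagen Col5a1 (1.15 ± 0.10, adjusted p = 6.54e-10) led the increases. Fibronectin, Fn1, was 3959 ± 737 CPM in non-adherent and 2142 ± 416 CPM in adherent cells (0.89 ± 0.16, adjusted p = 5.99e-05). The lower gene was the collagen-binding Sparc (-0.39 ± 0.13, adjusted p = 0.0171), which missed the threshold without adherent library 2 (adjusted p = 0.0598). The list's lower genes numbered 2 without adherent library 1 or 3, or non-adherent library 1 or 4. Non-adherent library 4 was the lowest of its group for Lama5, Hspg2, Loxl3, Col5a1, Fn1, Itga1, Itgb3 and Itgb4.

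Among 28 matrix proteases and their inhibitors 12 were higher and 6 lower (median 0.27). With the offsets 15 were higher and 7 lower, with a median of 0.29. Mmp13, which cleaves fibrillar collagen, ranged over 45.4 to 76.2 CPM in non-adherent libraries, against 16.8 to 26 CPM in adherent ones. The secreted thrombin inhibitor Serpine2 (1.33 ± 0.13, adjusted p = 5.86e-09) rose with it. Of 31 actin and myosin genes 7 were higher and 12 lower (median -0.08), and the higher ones were few with the offsets (1 higher and 10 lower). The calponin Cnn2 (-0.35 ± 0.04, adjusted p = 1.1e-07) and the tropomyosin Tpm4 (-0.39 ± 0.05, adjusted p = 1.13e-07) fell. The filamin Flna (0.23 ± 0.06, adjusted p = 0.00255) passed as higher, but had the other sign with the offsets (-0.22).

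Epithelial junction genes were lower more often than higher, while 2 defining epithelial markers did not pass. Cdh1, E-cadherin, which joins epithelial cells, had 442, 410, 408, 332 and 434 CPM in non-adherent libraries 1 to 5, against 458, 321, 292, 360 and 335 CPM in adherent libraries 1 to 5. The groups overlapped and the difference of 0.20 ± 0.12 did not pass (adjusted p = 0.179), though without adherent library 1 it was 0.31 (adjusted p = 0.0351). Epcam, a surface adhesion molecule of epithelia, did not pass either, at 334 ± 25.1 CPM in non-adherent and 375 ± 45.1 CPM in adherent cells (-0.17 ± 0.14, adjusted p = 0.321). Of 30 junction genes 4 were higher and 11 lower (median -0.11), and the higher ones were 2 without adherent library 2 or non-adherent library 5. With the offsets 3 were higher and 17 lower, with a median of -0.16. The desmosomal plakophilin Pkp2 (-0.55 ± 0.06, adjusted p = 4.25e-08) and the claudin Cldn12 (-0.77 ± 0.10, adjusted p = 1.3e-06) fell. Periplakin, Ppl (0.96 ± 0.09, adjusted p = 1.15e-09), rose. The catenin Ctnnd1 (0.31 ± 0.09, adjusted p = 0.00486) rose less and missed the threshold with the offsets (adjusted p = 0.102).

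Several keratins fell while vimentin rose. Of 10 keratin, vimentin, nestin and lamin genes 3 were higher and 5 lower (median -0.33). With the offsets 4 were higher and 6 lower, with a median of -0.39. Vim, the intermediate filament of mesenchymal cells, had 2351, 2462, 2262, 2248 and 2275 CPM in non-adherent libraries 1 to 5, against 1659, 1600, 1523, 1545 and 1603 CPM in adherent libraries 1 to 5. All non-adherent libraries exceeded all adherent ones, by a small factor (1.46-fold, 0.55 ± 0.04, adjusted p = 4.5e-11). Krt7, a keratin of simple epithelia, was 440 ± 10.8 CPM in non-adherent and 685 ± 21.4 CPM in adherent cells (-0.64 ± 0.05, adjusted p = 2.23e-11). Krt19 (-0.69 ± 0.07) and the stress keratin Krt17 (-1.01 ± 0.18) were lower with adjusted p-values of 2.36e-09 and 4.01e-05. The nuclear lamin Lmna (0.43 ± 0.06, adjusted p = 5.82e-07) rose. Krt8 and Krt18, the keratin pair of the line, did not pass.

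Transcription factors of EMT were higher as a group. Of 17 tested, 13 rose and 0 fell by edgeR (1 at an unadjusted p under 0.05 and 1 by DESeq2), with a median of 0.36. With the offsets 13 were higher and 1 lower, with a median of 0.39. Twist1, a basic helix-loop-helix repressor of E-cadherin, had 23, 22.9, 24.7, 22.1 and 21.6 CPM in non-adherent libraries 1 to 5, against 17.4, 15.5, 14.5, 18.6 and 15.8 CPM in adherent libraries 1 to 5 (0.48 ± 0.07, adjusted p = 6.15e-06). Its groups did not overlap. Zeb2, 0.49 ± 0.09 (adjusted p = 6.2e-05), and the ETS factor Etv4 (0.63 ± 0.05, adjusted p = 6.03e-11) rose, as did the forkhead factor Foxc2 (0.92 ± 0.09, adjusted p = 9.47e-09). Snai1 rose by 0.28 ± 0.10 (adjusted p = 0.0255) with overlapping groups, and it missed the threshold without adherent library 2 (adjusted p = 0.0531), adherent library 3 (0.0528) or non-adherent library 1 (0.0658). Zeb1 was near 1 CPM, at 0.942 ± 0.444 CPM in non-adherent and 1.38 ± 0.261 CPM in adherent cells (-0.55 ± 0.24, adjusted p = 0.0599). Without adherent library 5 (adjusted p = 0.0423) or non-adherent library 5 (0.00411) it passed as lower, as it did with the offsets (adjusted p = 0.021) and by DESeq2, limma-voom and limma-trend. Snai2 reached at most 0.0863 CPM in non-adherent and 0.0543 CPM in adherent libraries and was not tested. Cdh2, N-cadherin, was listed at 0 in all 10.

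Of 30 mesenchymal genes 17 were tested, and 9 rose and 3 fell (median 0.48), among them Vim and Serpine2 higher and Postn lower. The rest, such as Acta2, Col1a2, Col3a1, Fap and Tagln, were expressed too low to be tested. Without the filter the list's median was 0.026. With the offsets 10 were higher and 5 lower, with a median of 0.44. Of 14 epithelial transcription and splicing factors 4 were higher and 3 lower (median -0.04). The AP-2 factor Tfap2a (0.47 ± 0.06, adjusted p = 1.68e-06) and the luminal factor Gata3 (0.38 ± 0.06, adjusted p = 1.46e-05) rose. The splicing factor of epithelial isoforms, Esrp1 (-0.49 ± 0.07, adjusted p = 1.98e-06), fell. Grhl3 was low, at 1.51 ± 0.129 CPM in non-adherent and 2.11 ± 0.416 CPM in adherent cells (-0.48 ± 0.19, adjusted p = 0.0305), and lost its call without adherent library 1 (adjusted p = 0.106), adherent library 5 (0.0613) or non-adherent library 3 (0.0679). The list's lower genes then numbered 1 in each case.

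Of 25 genes used to mark stem-like cells 17 were tested, and 6 were higher and 3 lower (median 0.09). These counts are not far from the 25.7% and 28.4% of all genes tested. Aldh1a1, Aldh1a3, Prom1 and Sox2 were among the genes expressed too low to be tested. With the offsets 8 were higher and 1 lower, with a median of 0.21. Lgr6, an R-spondin receptor, was 68.5 ± 10.9 CPM in non-adherent and 26.3 ± 2.34 CPM in adherent cells (1.38 ± 0.10, adjusted p = 1.39e-11). Cd44, the hyaluronan receptor, was 866 ± 89.9 CPM in non-adherent and 575 ± 62.8 CPM in adherent cells (0.59 ± 0.11, adjusted p = 7.78e-05), and non-adherent library 4 at 708 CPM lay well below its group. Cd24a, the surface protein whose low level is read with high CD44 in human breast cancer, was 619 ± 11.7 CPM in non-adherent and 588 ± 17.8 CPM in adherent cells and did not pass (0.08 ± 0.04, adjusted p = 0.116), though with the offsets it was higher (0.39, adjusted p = 2.54e-05). The efflux pump Abcg2 was 3.2 ± 0.748 CPM in non-adherent and 7.95 ± 0.561 CPM in adherent cells (-1.31 ± 0.18, adjusted p = 1.49e-06). The protein C receptor Procr (-0.35 ± 0.12, adjusted p = 0.0137) was lower, but not with the offsets (adjusted p = 0.344).

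Genes of ERK feedback and of EGFR ligands and receptors moved mostly one way, though ERK activity itself was not measured. Of 25 tested genes for ERK feedback inhibitors, EGFR ligands and receptors 19 were higher and 0 lower by edgeR (0 at an unadjusted p under 0.05 and 0 by DESeq2), with a median of 0.46. The pattern held with the offsets (17 higher and 0 lower, median 0.42), and 1 gene was lower without non-adherent library 4. Dusp6, the phosphatase that switches ERK off and is induced by it, had 174, 196, 201, 163 and 180 CPM in non-adherent libraries 1 to 5, against 105, 114, 101, 105 and 106 CPM in adherent libraries 1 to 5. The lowest non-adherent library exceeded the highest adherent one (0.78 ± 0.05, adjusted p = 5.54e-12). Etv4, named above among EMT factors, stands in this list too. The EGFR ligand amphiregulin, Areg, was 41.6 ± 4.1 CPM in non-adherent and 31 ± 3 CPM in adherent cells (0.43 ± 0.13, adjusted p = 0.00673). Cyclin D1, Ccnd1, a growth factor-dependent cyclin outside this list, was 1355 ± 69.2 CPM in non-adherent and 873 ± 74.7 CPM in adherent cells (0.64 ± 0.06, adjusted p = 9.69e-09).

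Immediate early genes, which growth factors and stress switch on within minutes, also rose more often than they fell. Of 33 tested, 19 rose and 4 fell (median 0.30). With the offsets 18 were higher and 5 lower, with a median of 0.29. Egr3, a zinc finger factor, had 7.92, 9.19, 9.94, 6.45 and 8.51 CPM in non-adherent libraries 1 to 5, against 1.57, 1.9, 1.75, 2.1 and 2.43 CPM in adherent libraries 1 to 5 (2.10 ± 0.18, adjusted p = 2.58e-10). The pseudokinase Trib1 (0.63 ± 0.05, adjusted p = 2.77e-11) rose. The 4 that fell were Gadd45b, given above, the stress factor Atf3 (-0.65 ± 0.09, adjusted p = 1.56e-06), Klf6 and Myc.

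NF-kappa B targets and chemokines rose more often than they fell, 20 against 6 of 39 tested (median 0.21). With the offsets 20 were higher and 5 lower, with a median of 0.25. Tnfaip2 (0.80 ± 0.05, adjusted p = 2.3e-12), a TNF-induced gene, had 317 to 368 CPM in non-adherent libraries, against 188 to 202 CPM in adherent ones. Ptges, the enzyme that makes prostaglandin E2, ranged over 36.3 to 52.5 CPM in non-adherent libraries, against 11.6 to 15.6 CPM in adherent ones. The lower members included the interferon-linked chemokines Cxcl10 (-0.70 ± 0.16, adjusted p = 0.00058) and Ccl5 (-0.64 ± 0.10, adjusted p = 1.12e-05). Ccl5 did not pass with the offsets (adjusted p = 0.239). Il1b, near 1 CPM, was 1.16 ± 0.436 CPM in non-adherent and 1.6 ± 0.403 CPM in adherent cells (-0.49 ± 0.21, adjusted p = 0.0489). That call was lost with the offsets (adjusted p = 0.675), without a filter (adjusted p = 0.0737), with only the groups compared (0.108) and by limma-trend (0.0552). Leaving out any of 7 of the 10 libraries (adherent 1, 3 or 4, or non-adherent 1, 2, 3 or 4) also ended it, with adjusted p-values from 0.051 to 0.154.

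**Figure D3:**
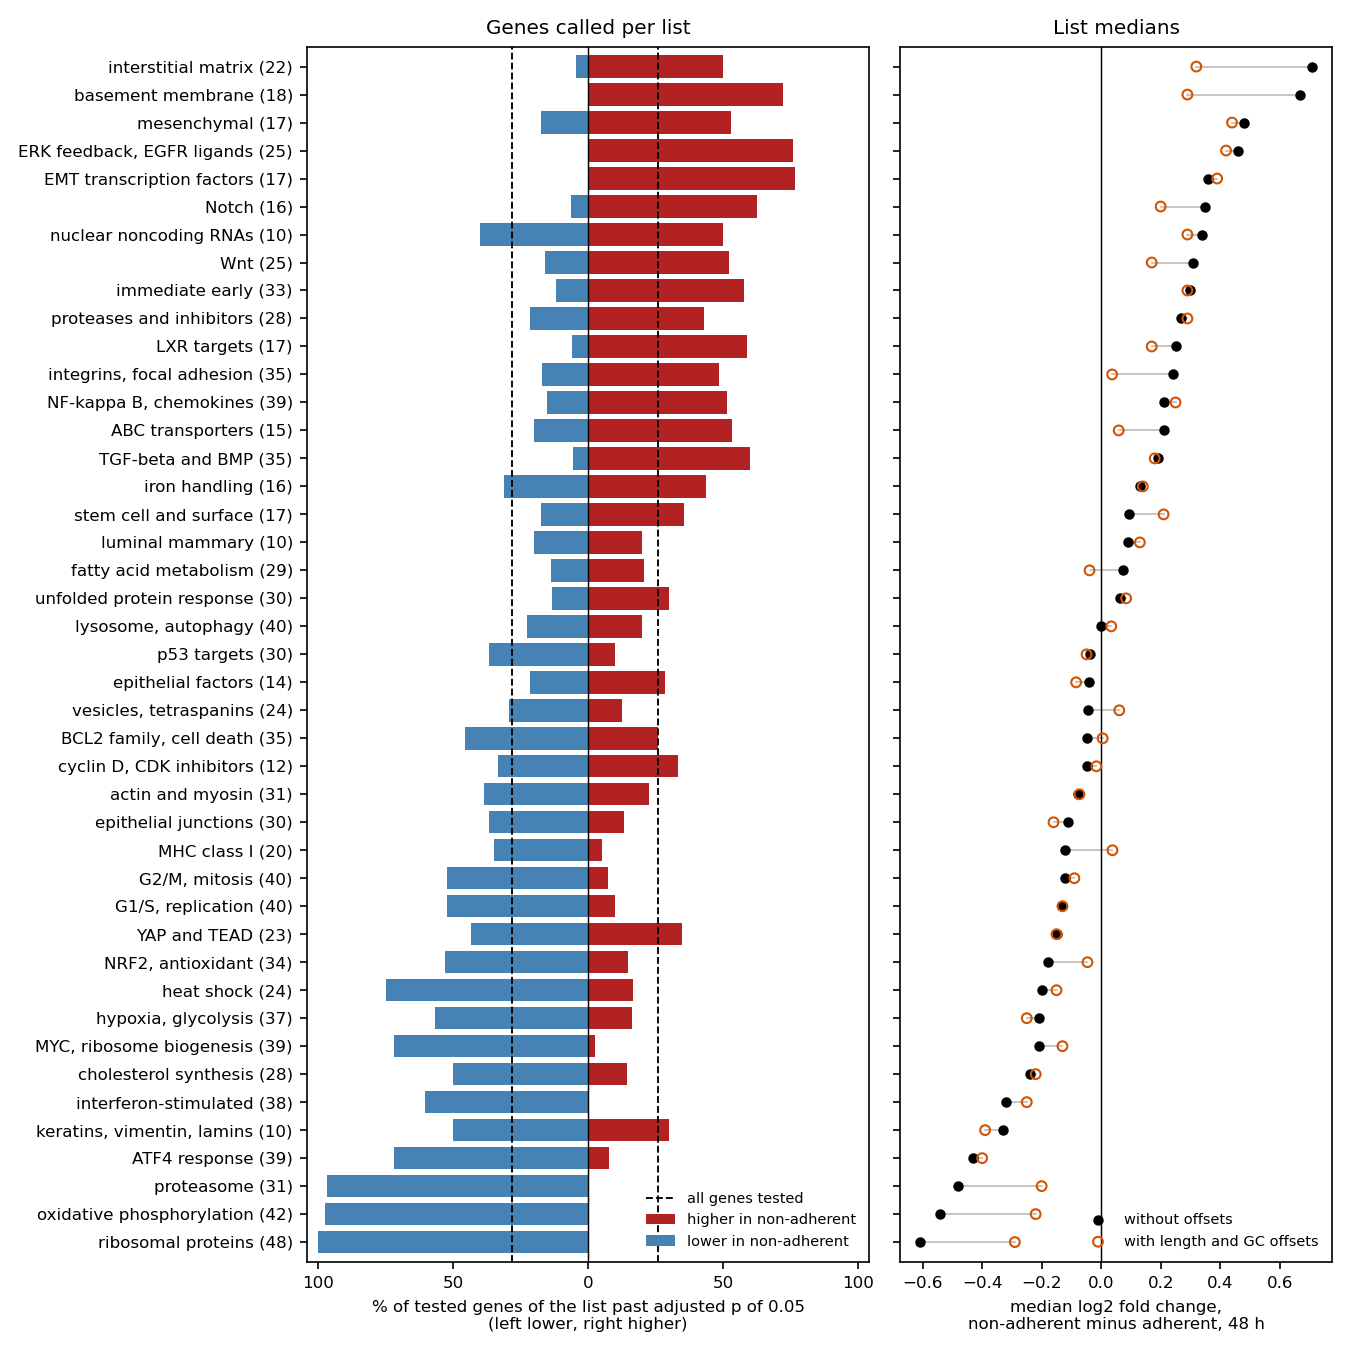
Left, the percentage of each list's tested genes (number in brackets) called higher (right side) or lower (left side) in non-adherent than in adherent 27HC-sEV cells at 48 h, lists ordered by median, with dashed lines at 25.7% and 28.4% for all genes tested. Right, the median log2 fold change of each list without and with length and GC offsets; matrix, ribosomal protein, oxidative phosphorylation and proteasome lists lie closer to 0 with the offsets, and the ribosomal protein median moves to -0.29 from -0.61.

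Interferon-stimulated genes were lower. Of 38 tested, 23 fell and 0 rose by edgeR (0 at an unadjusted p under 0.05 and 0 by DESeq2), with a median of -0.32. With the offsets 0 were higher and 17 lower, with a median of -0.25. Isg15, a ubiquitin-like modifier induced by interferon, had 4.26, 5.21, 5.01, 5.65 and 5.1 CPM in non-adherent libraries 1 to 5, against 9.65, 15, 12.6, 9.35 and 10.4 CPM in adherent libraries 1 to 5. The groups did not overlap, and the difference was 2.25-fold (-1.17 ± 0.16, adjusted p = 1.04e-06). Oasl1 (-0.83 ± 0.10, adjusted p = 1.35e-07), of the oligoadenylate synthetase family, and the RNA sensor Ifih1 (-0.49 ± 0.07, adjusted p = 1.42e-06) fell as well. Ifi47, among the 12 largest decreases, is a further interferon-inducible gene. Levels in DMSO-sEV cells were 8.11 ± 1.03 CPM for Isg15 and 31.8 ± 2.63 CPM for Ifi47. In the MHC class I list 1 of 20 tested genes was higher and 7 were lower (median -0.12), and the higher genes were 3 without adherent library 1 and 2 without non-adherent library 4. With the offsets 2 were higher and 6 lower, with a median of 0.04. The higher gene was the MHC class I transactivator Nlrc5 (0.72 ± 0.10, adjusted p = 2.08e-06). The lower ones were led by the proteasome activator Psme1 (-0.47 ± 0.09, adjusted p = 0.000129) and the immunoproteasome subunit Psmb10 (-0.49 ± 0.10, adjusted p = 0.000222). The heavy chains H2-K1 and H2-D1 and B2m did not pass.

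The windows around the starts of Isg15 and Ifih1 are shown because interferon-activated factors bind the interferon-stimulated response element, searched as 2 copies of GAAA with any 2 bases between them, on both strands, and given in capitals (RefSeq, GRCm38.p6).
Isg15, chr4:156200769-156201068, minus strand: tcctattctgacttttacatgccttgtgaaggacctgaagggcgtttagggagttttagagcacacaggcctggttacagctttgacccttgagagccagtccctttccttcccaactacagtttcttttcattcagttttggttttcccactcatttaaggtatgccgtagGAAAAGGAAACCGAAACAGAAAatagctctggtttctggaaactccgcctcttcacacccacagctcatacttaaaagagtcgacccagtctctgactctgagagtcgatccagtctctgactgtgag
Ifih1, chr2:62646206-62646505, minus strand: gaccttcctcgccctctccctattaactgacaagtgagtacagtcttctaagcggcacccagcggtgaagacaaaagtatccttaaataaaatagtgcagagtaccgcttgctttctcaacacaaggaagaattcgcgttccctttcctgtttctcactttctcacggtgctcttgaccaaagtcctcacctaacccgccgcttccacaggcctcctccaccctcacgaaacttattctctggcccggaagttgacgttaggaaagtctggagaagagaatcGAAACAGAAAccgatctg
In Isg15 3 overlapping matches run together before the start. Of 30 list genes with a window 16 (53.3%) held the element, as did 3.61% of the 10200 tested genes with a window. This excess follows from a list of known interferon-stimulated genes and is no result about their decrease. Among the 18 lower genes 9 held it, a share no higher than the list's own.

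Genes of the ATF4 response, the transcription programme that amino acid shortage and the kinases of the integrated stress response turn on, were lower. Of 39 tested, 3 rose and 28 fell (median -0.43). With the offsets 2 were higher and 32 lower, with a median of -0.40. Asns, asparagine synthetase, had 129, 123, 108, 142 and 121 CPM in non-adherent libraries 1 to 5, against 253, 232, 214, 237 and 247 CPM in adherent libraries 1 to 5. The groups were far apart (1.9-fold, -0.92 ± 0.06, adjusted p = 8.57e-13), and DMSO-sEV cells held 116 ± 5.28 CPM, near the non-adherent level. Psph, given above, and the mTOR inhibitor Ddit4 (-0.63 ± 0.05, adjusted p = 1.15e-10) fell with it. Ddit3, which encodes CHOP, was 25.1 ± 4.64 CPM in non-adherent and 42.8 ± 2.91 CPM in adherent cells and 4.34 ± 0.656 CPM in DMSO-sEV cells (-0.77 ± 0.11, adjusted p = 1.69e-06). The ATF4 repressor Trib3 had a log2 fold change of -0.73 ± 0.08 (adjusted p = 1.26e-08). Mean Asns and Ddit3 levels were highest in the adherent group of the 3, with no test against DMSO-sEV cells reported here. The higher members were Cebpb (0.45 ± 0.05, adjusted p = 1.84e-07), the amino acid transporter Slc38a2 (0.43 ± 0.09, adjusted p = 0.000405) and Slc7a1, which had the other sign with the offsets.

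The start regions of Asns and Trib3 are shown because ATF4 binds composite C/EBP-ATF sites, searched as TGATGNAA on both strands and given in capitals (RefSeq, GRCm38.p6).
Asns, chr6:7693160-7693459, minus strand: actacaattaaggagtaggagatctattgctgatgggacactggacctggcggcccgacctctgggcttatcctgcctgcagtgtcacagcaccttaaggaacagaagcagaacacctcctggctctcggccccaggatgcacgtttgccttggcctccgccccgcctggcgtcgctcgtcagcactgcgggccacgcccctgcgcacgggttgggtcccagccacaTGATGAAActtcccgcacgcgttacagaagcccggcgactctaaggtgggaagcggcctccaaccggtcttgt
Trib3, chr2:152344011-152344310, minus strand: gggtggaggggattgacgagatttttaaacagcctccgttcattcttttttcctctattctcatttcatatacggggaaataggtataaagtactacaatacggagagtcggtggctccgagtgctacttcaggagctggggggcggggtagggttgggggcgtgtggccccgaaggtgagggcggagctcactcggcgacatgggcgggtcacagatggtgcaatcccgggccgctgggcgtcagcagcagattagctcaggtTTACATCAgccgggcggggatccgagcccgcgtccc
Of 31 list genes with a window 13 (41.9%) held these letters, as did 2.68% of the 10200 tested genes with a window. Again the excess follows from a list of known ATF4 response genes and is no result about their decrease. Among the 23 lower ones 9 held them, a share no higher than the list's own.

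Other stress programmes did not follow one direction. In the unfolded protein response 9 of 30 tested genes were higher, 4 lower and 17 did not pass, among them the chaperone gene Hspa5 and Xbp1 (median 0.06; 11 higher and 2 lower, median 0.08 with the offsets). The sensor kinase Ern1 (0.52 ± 0.07, adjusted p = 2.06e-06) and the factor Creb3l2 (0.82 ± 0.09, adjusted p = 5.37e-08) rose. Herpud1 (-0.50 ± 0.10, adjusted p = 0.000173) and the translocon subunit Sec61b (-0.70 ± 0.15, adjusted p = 0.00036) fell. Heat shock genes fell more often, 18 against 4 higher of 24 (median -0.20; 3 higher and 13 lower, median -0.15 with the offsets). Hsp90aa1 (-0.33 ± 0.04, adjusted p = 2.22e-07) and the mitochondrial chaperone Hspa9 (-0.38 ± 0.05, adjusted p = 5.96e-07) were lower. Hspa1b (0.50 ± 0.10, adjusted p = 0.000109) and Hsph1 (0.35 ± 0.08, adjusted p = 0.000566) were higher, the first with a near-identical neighbour, Hspa1a, whose reads cannot be told apart with certainty.

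Hypoxia and glycolysis genes were lower in 21 and higher in 6 of 37 cases (median -0.21; 3 higher and 22 lower, median -0.25 with the offsets). Pgk1, a glycolytic kinase, had 580 to 652 CPM in non-adherent libraries, against 1151 to 1297 CPM in adherent ones (-0.95 ± 0.08, adjusted p = 2.04e-10), and Bnip3 was given above. The oxygen sensor Egln3 (0.21 ± 0.05, adjusted p = 0.000736) and hexokinase 2, Hk2 (0.51 ± 0.12, adjusted p = 0.00109), were higher. Of 34 NRF2 and antioxidant genes 5 were higher and 18 lower (median -0.18), which came to 7 each with the offsets. NRF2 itself, Nfe2l2 (0.31 ± 0.04, adjusted p = 5.5e-07), and the glutathione transferase Gstm1 (0.58 ± 0.13, adjusted p = 0.000656) rose. Prdx6 (-0.30 ± 0.05, adjusted p = 2.05e-05) and catalase, Cat (-0.28 ± 0.05, adjusted p = 2.59e-05), fell, and Cat did not pass with the offsets (adjusted p = 0.0902). Of 16 iron genes 7 rose and 5 fell (median 0.13; 6 higher and 2 lower, median 0.14 with the offsets). Beside Lcn2 the importer Slc39a14 (0.67 ± 0.08, adjusted p = 2.82e-07) rose, while the transferrin receptor Tfrc (-0.71 ± 0.10, adjusted p = 4.19e-06) and the iron exporter ferroportin, Slc40a1 (-0.68 ± 0.08, adjusted p = 3.2e-07), fell. In the lysosome and autophagy list 8 were higher, 9 lower and 23 not past the test, of 40 (median -0.00098; 9 higher and 5 lower, median 0.03 with the offsets). The glycoprotein Gpnmb (0.85 ± 0.15, adjusted p = 3.35e-05) rose, and the autophagy genes Atg5 (-0.51 ± 0.10, adjusted p = 0.000184) and Gabarapl2 (-0.62 ± 0.14, adjusted p = 0.000446) fell.

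Sterol genes split by branch. LXR receptors sense oxysterols and switch on cholesterol export, while SREBP2 switches on synthesis and uptake when sterols are scarce. Of 17 tested genes for LXR receptors, their targets and other sterol handling 10 were higher and 1 lower (median 0.25). With the offsets 9 were higher and 1 lower, with a median of 0.17. Abca1, the cholesterol exporter, had 2.11, 2.66, 2.29, 1.24 and 1.82 CPM in non-adherent libraries 1 to 5, against 0.454, 0.369, 0.249, 0.524 and 0.358 CPM in adherent libraries 1 to 5. Its groups did not overlap, at low levels (2.35 ± 0.31, adjusted p = 9.57e-07), and DMSO-sEV cells held 0.0369 ± 0.0507 CPM. Abca7 (0.69 ± 0.09, adjusted p = 1.36e-06) rose and the lipid droplet protein Plin2 (-0.48 ± 0.05, adjusted p = 1.85e-08) fell. Of 28 cholesterol synthesis and uptake genes 4 were higher and 14 lower (median -0.24; 2 higher and 16 lower, median -0.22 with the offsets). Idi1, isopentenyl-diphosphate isomerase, had 29.9, 27.4, 28, 38 and 33.1 CPM in non-adherent libraries 1 to 5, against 60.6, 74.8, 70.8, 65.3 and 60.4 CPM in adherent libraries 1 to 5 (-1.08 ± 0.11, adjusted p = 1.24e-08). Farnesyl diphosphate synthase, Fdps (-0.61 ± 0.07, adjusted p = 1.89e-08), was lower too. Both 27HC-sEV groups lay far below the DMSO-sEV cells, which held 697 ± 35.5 CPM of Idi1 and 495 ± 24.6 CPM of Fdps. Hmgcs1, HMG-CoA synthase, was 56.5 ± 1.88 CPM in non-adherent and 67.2 ± 2.27 CPM in adherent cells and 613 ± 23.2 CPM in DMSO-sEV cells (-0.25 ± 0.04, adjusted p = 6.15e-05), and did not pass with the offsets (adjusted p = 0.19).

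The higher sterol genes included Dhcr7 (0.36 ± 0.11, adjusted p = 0.00683), a late enzyme of synthesis, Mylip (0.28 ± 0.09, adjusted p = 0.0072), a ubiquitin ligase driven by LXR, and Scap. Scap had the other sign with the offsets. Of 29 fatty acid genes 19 did not pass, 6 were higher and 4 lower (median 0.07; 5 higher and 5 lower, median -0.04 with the offsets), and the higher ones were 3 without non-adherent library 5. The arachidonate-activating Acsl4 (0.43 ± 0.05, adjusted p = 2.35e-08) and the mitochondrial importer Cpt1a (0.33 ± 0.07, adjusted p = 0.000287) rose. Malic enzyme, Me1 (-0.21 ± 0.04, adjusted p = 0.000201), and Acadm (-0.23 ± 0.07, adjusted p = 0.00473) fell but not with the offsets (-0.06 and 0.01).

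**Figure D4:**
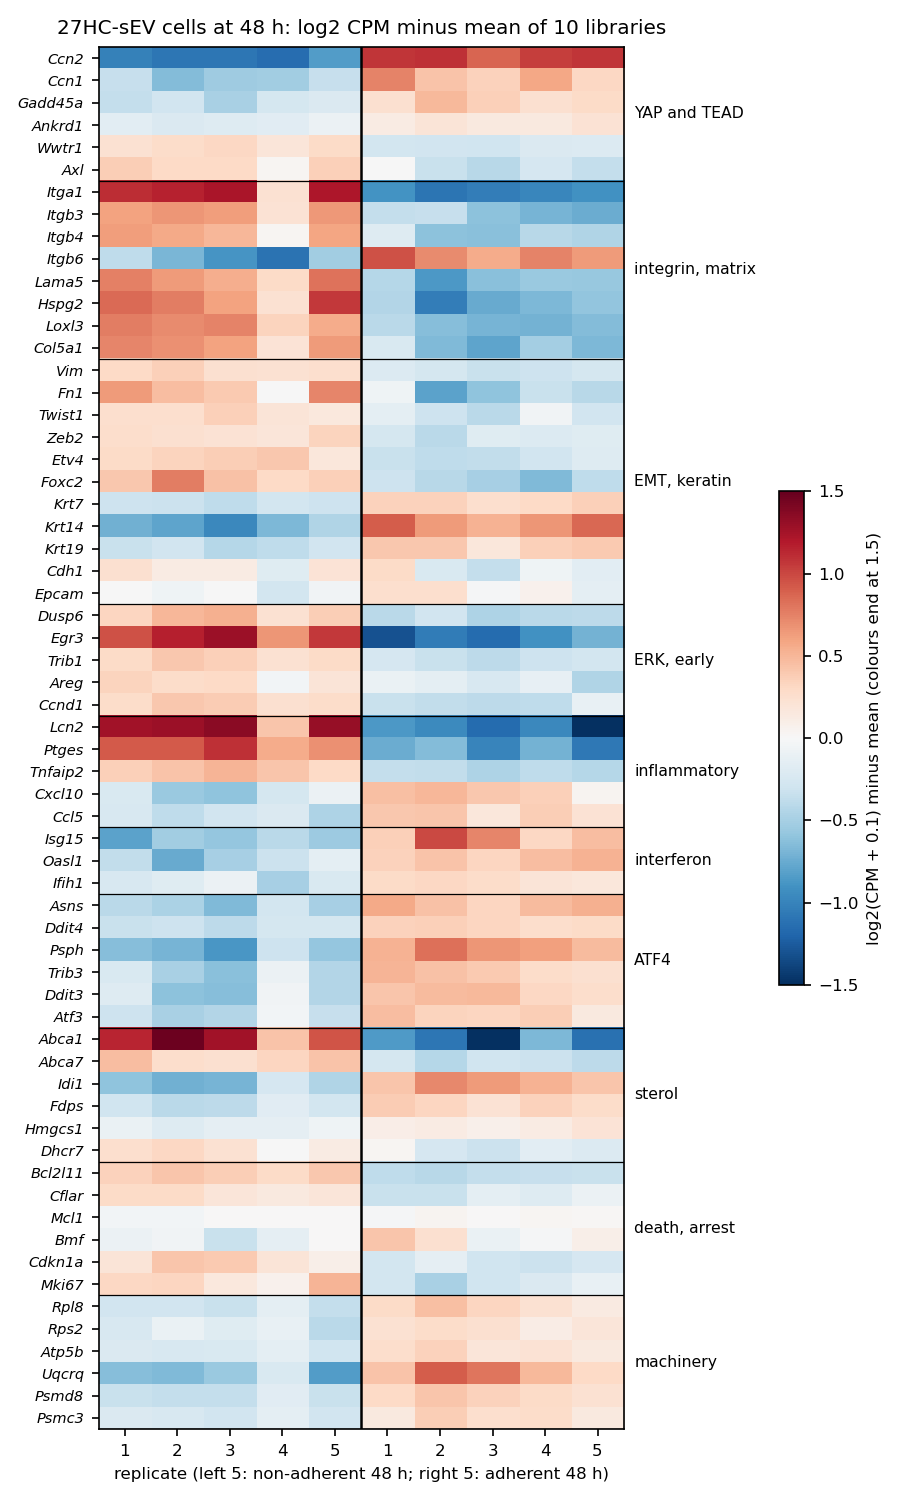
Log2(CPM + 0.1) of named genes minus each gene's mean over the 10 libraries, non-adherent libraries 1 to 5 left of adherent libraries 1 to 5, grouped by role; red is above and blue below the mean, and colours end at 1.5. Ccn2, Krt14, Asns and Isg15 are blue in all 5 non-adherent libraries, Itga1, Egr3 and Lcn2 red, while Cdh1, Epcam and Mcl1 change little.

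Proliferation genes were lower more often than higher. Of 40 replication genes 4 rose and 21 fell (median -0.13; 2 higher and 20 lower, median -0.13 with the offsets), and of 40 mitotic genes 3 rose and 21 fell (median -0.12; 6 higher and 18 lower, median -0.09 with the offsets). Rrm1, a subunit of ribonucleotide reductase, was -0.24 ± 0.04 (adjusted p = 6.54e-05), and the clamp loader subunit Rfc5 (-0.45 ± 0.08, adjusted p = 3.17e-05) fell with it. The mitotic genes Ect2 (-0.39 ± 0.04, adjusted p = 5.14e-09) and Bub1 (-0.50 ± 0.06, adjusted p = 5.12e-07) were lower. Mki67, the proliferation marker Ki-67, went the other way, with 744, 750, 669, 626 and 851 CPM in non-adherent libraries 1 to 5, against 495, 428, 486, 516 and 553 CPM in adherent libraries 1 to 5 (0.55 ± 0.09, adjusted p = 2.08e-05). Its transcript is long (10061 bases), and with the offsets the difference was 0.17 (adjusted p = 0.000301). The long kinetochore gene Cenpf (0.43 ± 0.07, adjusted p = 7.5e-06) was likewise 0.14 with them. Uhrf1 (0.24 ± 0.06, adjusted p = 0.00177) and E2f1 (0.23 ± 0.06, adjusted p = 0.00289) rose slightly, and did not pass with the offsets (adjusted p = 0.0834 and 0.227).

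The cyclin D and CDK inhibitor list had 4 higher and 4 lower of 12 (median -0.05; 3 higher and 5 lower, median -0.02 with the offsets). Cdkn1a, the CDK inhibitor p21, was 29.1 ± 2.87 CPM in non-adherent and 20.3 ± 1.02 CPM in adherent cells (0.52 ± 0.07, adjusted p = 3.47e-07). Cdkn1b, p27, was slightly lower (-0.18 ± 0.05, adjusted p = 0.00477), as were Cdk4 (-0.36 ± 0.09, adjusted p = 0.000945) and the pocket protein Rbl1 (-0.23 ± 0.06, adjusted p = 0.00165). Cdkn1a is also a p53 target. In that list 3 were higher and 11 lower of 30 (median -0.04; 4 higher and 11 lower, median -0.05 with the offsets), with Aifm2 (0.28 ± 0.08, adjusted p = 0.00393) higher and Plk2 (-0.92 ± 0.07, adjusted p = 3.6e-11) and Ccng1 (-0.55 ± 0.05, adjusted p = 2.04e-09) lower.

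Bcl2l11, the BIM gene of anoikis, had 118, 124, 120, 113 and 123 CPM in non-adherent libraries 1 to 5, against 71.2, 69.7, 72.1, 73.2 and 73.8 CPM in adherent libraries 1 to 5. Every non-adherent library held more than every adherent one (1.66-fold, 0.73 ± 0.08, adjusted p = 1.89e-08), and the mean in DMSO-sEV cells was 47.5 ± 6.04 CPM. Bmf, the BH3-only protein tied to the cytoskeleton, was 11.9 ± 1.01 CPM in non-adherent and 14.2 ± 2.09 CPM in adherent cells (-0.25 ± 0.08, adjusted p = 0.00867), and missed the threshold without adherent library 1 (adjusted p = 0.0506). Of the survival genes Mcl1 did not pass, at 189 ± 3.56 CPM in non-adherent and 193 ± 2.8 CPM in adherent cells (-0.03 ± 0.04, adjusted p = 0.587). Bcl2l1, which encodes BCL-XL, was higher by 0.15 ± 0.06 (adjusted p = 0.0329). That call was lost with the offsets (adjusted p = 0.25), without adherent library 3 (adjusted p = 0.0803) or 4 (0.0578), and without non-adherent library 1 (0.0768), 2 (0.0652) or 4 (0.072). Cflar (0.43 ± 0.07, adjusted p = 1.41e-05), the caspase-8 inhibitor FLIP, rose. Of 35 death genes in all 9 were higher and 16 lower (median -0.05; 9 higher and 12 lower, median 0.01 with the offsets), and the higher ones were 5 without non-adherent library 2. Mlkl (-0.36 ± 0.05, adjusted p = 1.03e-06), the effector of necroptosis, and cytochrome c, Cycs (-0.56 ± 0.10, adjusted p = 5.18e-05), were lower.

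The machinery of protein synthesis, respiration and protein breakdown was lower in nearly every tested gene, and these transcripts are short. All 48 tested ribosomal protein genes fell by edgeR, with a median of -0.61 and a median transcript length of 1124 bases. With the offsets 1 was higher and 45 lower, with a median of -0.29. Rpl8 was 674 ± 38.5 CPM in non-adherent and 999 ± 83.4 CPM in adherent cells (-0.57 ± 0.09, adjusted p = 1.75e-05) and Rps2 (-0.41 ± 0.07, adjusted p = 2.16e-05) fell likewise. These genes have many processed copies in the genome, so their counts are uncertain. Of 42 oxidative phosphorylation genes 41 fell (median -0.54), and Sdha did not pass. With the offsets 1 was higher and 29 lower, with a median of -0.22. The complex III subunit Uqcrq (-1.18 ± 0.17, adjusted p = 4.21e-06) and the ATP synthase subunit Atp5b (-0.46 ± 0.07, adjusted p = 1.41e-05) led it by p. Of 31 proteasome genes 30 fell (median -0.48), among them Psmd8 (-0.63 ± 0.07, adjusted p = 8.35e-08) and Psmc3 (-0.48 ± 0.08, adjusted p = 1.16e-05), and Psmd3 did not pass. With the offsets 1 was higher and 24 lower, with a median of -0.20. No gene of these 3 lists was higher by edgeR or by DESeq2, at an adjusted or an unadjusted p under 0.05. Of 39 ribosome biogenesis genes 28 fell and 1 rose (median -0.21; 2 higher and 22 lower, median -0.13 with the offsets). Wdr12 (-0.66 ± 0.08, adjusted p = 4.47e-07) fell in both fits and Dkc1 (-0.31 ± 0.04, adjusted p = 5.68e-07) not with the offsets (adjusted p = 0.0679). The higher one, the RNA polymerase I subunit Polr1a (0.33 ± 0.13, adjusted p = 0.0305), had the other sign with the offsets (-0.12) and missed the threshold without adherent library 2 (adjusted p = 0.0733) or 3 (0.0583) or non-adherent library 1 (0.0568) or 5 (0.0556). Without adherent library 5 the list had 2 higher genes. CPM are shares of a library's reads, so a lower value here is a lower share and no measure of RNA per cell. In bulk RNA, a change in some cells and a smaller change in all cells cannot be told apart.

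Genes of developmental pathways were higher more often than lower. In the TGF-beta and BMP list 21 of 35 tested rose and 2 fell (median 0.19; 20 higher and 5 lower, median 0.18 with the offsets). Ltbp3 (1.23 ± 0.09, adjusted p = 9.62e-12), which stores latent TGF-beta in the matrix, and the ligand Bmp7 (0.94 ± 0.08, adjusted p = 2.07e-10) rose. The activin antagonist Fst (-1.19 ± 0.26, adjusted p = 0.00049), at 0.364 to 0.716 CPM in non-adherent libraries, against 0.825 to 1.45 CPM in adherent ones, and the ligand Tgfb2 (-0.76 ± 0.20, adjusted p = 0.0027) fell. In the Notch list 10 of 16 rose and 1 fell (median 0.35; 8 higher and 0 lower, median 0.20 with the offsets), with the receptor Notch2 (0.98 ± 0.12, adjusted p = 1.76e-07) and the feedback inhibitor Nrarp (0.56 ± 0.06, adjusted p = 7.55e-09) higher. The target Hey2 was near the detection limit, at 0.0656 ± 0.053 CPM in non-adherent and 0.245 ± 0.119 CPM in adherent cells (-1.82 ± 0.68, adjusted p = 0.0265), and lost the call with the offsets (adjusted p = 0.065), without adherent library 4 (adjusted p = 0.0942) and without non-adherent library 1, 2, 3 or 5 (0.0515 to 0.0582). The list's lower genes were 2 without adherent library 5 or non-adherent library 4. In the Wnt list 13 of 25 rose and 4 fell (median 0.31; 11 higher and 5 lower, median 0.17 with the offsets). The co-receptors Lrp6 (0.85 ± 0.09, adjusted p = 3.63e-08) and Lrp5 (0.77 ± 0.11, adjusted p = 4.03e-06) rose, and the ligands Wnt7a (-0.56 ± 0.09, adjusted p = 1.54e-05) and Wnt9a (-0.59 ± 0.15, adjusted p = 0.00194) fell. Of 15 ABC transporters 8 rose and 3 fell (median 0.21; 5 higher and 3 lower, median 0.06 with the offsets), with Abca2 (0.67 ± 0.09, adjusted p = 2.01e-06) higher after Abcc3, and Abcg2 lower as given above.

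Of 24 vesicle and tetraspanin genes 3 rose and 7 fell (median -0.04; 7 higher and 3 lower, median 0.06 with the offsets). The higher ones were 5 without adherent library 5. The tetraspanins Cd82 (0.58 ± 0.14, adjusted p = 0.00158) and Tspan14 (0.35 ± 0.09, adjusted p = 0.00281) were higher. The ESCRT genes Tsg101 (-0.31 ± 0.06, adjusted p = 0.000191) and Vps4b (-0.15 ± 0.03, adjusted p = 0.000292) were lower, and neither passed with the offsets (adjusted p = 0.619 and 0.0769). Of 10 noncoding RNAs 5 rose and 4 fell (median 0.34; 4 higher and 3 lower, median 0.29 with the offsets). Malat1, a long RNA kept in the nucleus, was 1294 ± 176 CPM in non-adherent and 776 ± 156 CPM in adherent cells (0.74 ± 0.15, adjusted p = 0.000246). Kcnq1ot1 (0.89 ± 0.17, adjusted p = 0.000153), whose reads cannot be told from those of its overlapping partner Kcnq1 without strand, rose, as did Rn7sk (0.88 ± 0.17, adjusted p = 0.000131), a noncoding RNA made by RNA polymerase III without a poly(A) tail. Neat1 was 986 ± 245 CPM in non-adherent and 736 ± 135 CPM in adherent cells (0.42 ± 0.18, adjusted p = 0.0494). It had the other sign with the offsets (-0.11) and lost the call without any of 6 libraries (adherent 1, 2 or 4, non-adherent 2, 3 or 4; adjusted p from 0.0564 to 0.195). The call was also lost with RLE factors (adjusted p = 0.0532), upper-quartile factors (0.0588), unrounded counts (0.0506) or no filter (0.101), and by limma-voom (0.0613) and limma-trend (0.0574). The snoRNA host genes Snhg12 (-0.84 ± 0.11, adjusted p = 1.01e-06) and Gas5 (-0.67 ± 0.10, adjusted p = 2.85e-06) fell.

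Markers of mammary lineages gave no single direction. Of 10 luminal genes 2 rose (Gata3 and Areg) and 2 fell (Krt7 and Krt19), against 4 higher and 2 lower with the offsets. With the offsets 1 of 7 basal genes was higher and 3 were lower. Without them 2 of the 7 rose and 4 fell, among them Krt14 and Krt17. The higher ones were Itgb4 and the myosin kinase Mylk, 2.08 to 2.5 CPM in non-adherent libraries, against 1.45 to 2.02 CPM in adherent ones (0.37 ± 0.15, adjusted p = 0.0449). Mylk had the other sign with the offsets (-0.03) and missed the threshold without adherent library 3 or 4 or non-adherent library 1, 2, 3 or 5 (adjusted p from 0.0532 to 0.112). It also missed it without a filter (adjusted p = 0.099) and by DESeq2 (0.0579).

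Defining markers of neutrophils, lymphocytes, endothelial cells and the erythroid and platelet lineages were below 1 CPM in sum in all 10 libraries, while macrophage and fibroblast markers were not. Of 12 defining neutrophil genes 6 (Ly6g, Elane, Mpo, Ngp, Csf3r and Mmp8) were at 0 in all 10 libraries, and the 12 summed to 0.282 to 0.723 CPM in non-adherent and 0.195 to 0.902 CPM in adherent libraries. The longer neutrophil list summed to 102 to 165 CPM in non-adherent and 66.3 to 96.1 CPM in adherent libraries, mostly Mmp9 and Lcn2. Of its 5 tested genes 3 rose (Lcn2, Mmp9 and the integrin Itgb2) and Il1b was lower as given above. The value for Itgb2 was 0.67 ± 0.11 (adjusted p = 1.65e-05). Of 7 macrophage genes 5 were at 0 (Adgre1, C1qa, C1qb, C1qc and Lyz2), and the 7 summed to 4.58 to 6.43 CPM in non-adherent and 5.32 to 8.62 CPM in adherent libraries. Of 4 tested macrophage genes 1 (Cd14) rose, though not without non-adherent library 2, and 1 (Csf1r) fell. Lymphocyte and endothelial lists had no testable gene. The 8 fibroblast markers summed to 26.5 to 39.1 CPM in non-adherent and 26.5 to 40.5 CPM in adherent libraries, nearly all Pdgfra and Postn. Of 4 tested fibroblast genes 2 (Pdgfra and Dcn) rose and 1 (Postn) fell, with 1 higher without adherent library 1, 4 or 5 or non-adherent library 1, 2 or 5. Neither of 2 tested erythroid and platelet genes passed, though 1 was higher without adherent library 3.

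At 72 h the same comparison gave 1915 genes higher (14.7%) and 1662 lower (12.8%) in non-adherent cells. A direct test of the difference between the times called 598 genes (4.6%). In 444 (3.41%) the log2 fold change was lower at 72 than at 48 h, and in 154 (1.18%) it was higher. These counts rest on the 4 non-adherent libraries left at 72 h, since the authors removed 1 as an outlier. They moved with single libraries: without non-adherent library 1 at 72 h they were 258 and 92, against 98 higher without non-adherent library 2 at 72 h or library 3 at 48 h. Dusp6 had a log2 fold change of 0.78 ± 0.05 at 48 h and 0.15 ± 0.06 at 72 h (difference -0.64 ± 0.08, adjusted p = 2.76e-05). Sema6d had 2.03 ± 0.13 and 0.57 ± 0.13 (difference -1.46 ± 0.18, adjusted p = 2.76e-05). Nptx1 had 1.68 ± 0.11 and 0.33 ± 0.12 (difference -1.35 ± 0.16, adjusted p = 2.76e-05), and Abcc3 had 1.92 ± 0.13 and 0.47 ± 0.14 (difference -1.45 ± 0.19, adjusted p = 5.21e-05). In these 4 the excess in non-adherent cells was smaller at the later time.

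The 4 genes leading in the other direction were lower in non-adherent cells at 48 h. Niban1, a stress-induced gene, had -0.70 ± 0.07 (adjusted p = 3.42e-09) at 48 h and 0.09 ± 0.07 at 72 h (difference 0.79 ± 0.10, adjusted p = 2.76e-05). Asns had -0.92 ± 0.06 and -0.32 ± 0.06 (difference 0.60 ± 0.08, adjusted p = 5.24e-05). Fdps had -0.61 ± 0.07 and 0.11 ± 0.07 (difference 0.73 ± 0.10, adjusted p = 5.21e-05), and the interleukin-18 receptor chain Il18rap had -0.57 ± 0.05 (adjusted p = 9.25e-10) and -0.06 ± 0.05 (difference 0.51 ± 0.07, adjusted p = 0.000158). Of 39 ATF4 genes 18 differed between times with a positive sign, against 1.18% of all genes tested, and of 28 cholesterol genes 5 did. A negative difference was called in 12 of 25 ERK feedback genes, 9 of 18 basement membrane genes, 9 of 35 integrin genes, 10 of 35 TGF-beta genes and 10 of 39 NF-kappa B genes, against 3.41% of all. Of all 569 genes called at 48 h that also differed between times, 547 had a smaller difference at 72 h. Lists mostly lower at 48 h therefore tend to positive signs here, and lists mostly higher to negative ones. The signs are thus not particular to these lists. These list counts between times were not set against the offsets. The mean slope per doubling of length was 0.215 in non-adherent libraries at 48 h and 0.142 at 72 h. In adherent libraries it was -0.0244 and -0.00481. What the length dependence adds to these counts was not tested. Ccn2 did not differ by this test, with -2.07 ± 0.10 at 48 h and -2.37 ± 0.11 at 72 h (difference -0.30 ± 0.14, adjusted p = 0.252). Neither did Mmp13, with 1.52 ± 0.18 and 2.10 ± 0.18 (difference 0.57 ± 0.25, adjusted p = 0.229), nor Bcl2l11, with 0.73 ± 0.08 and 0.49 ± 0.08 (difference -0.24 ± 0.11, adjusted p = 0.268). A p above the threshold does not show that the times were alike.

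**Figure D5:**
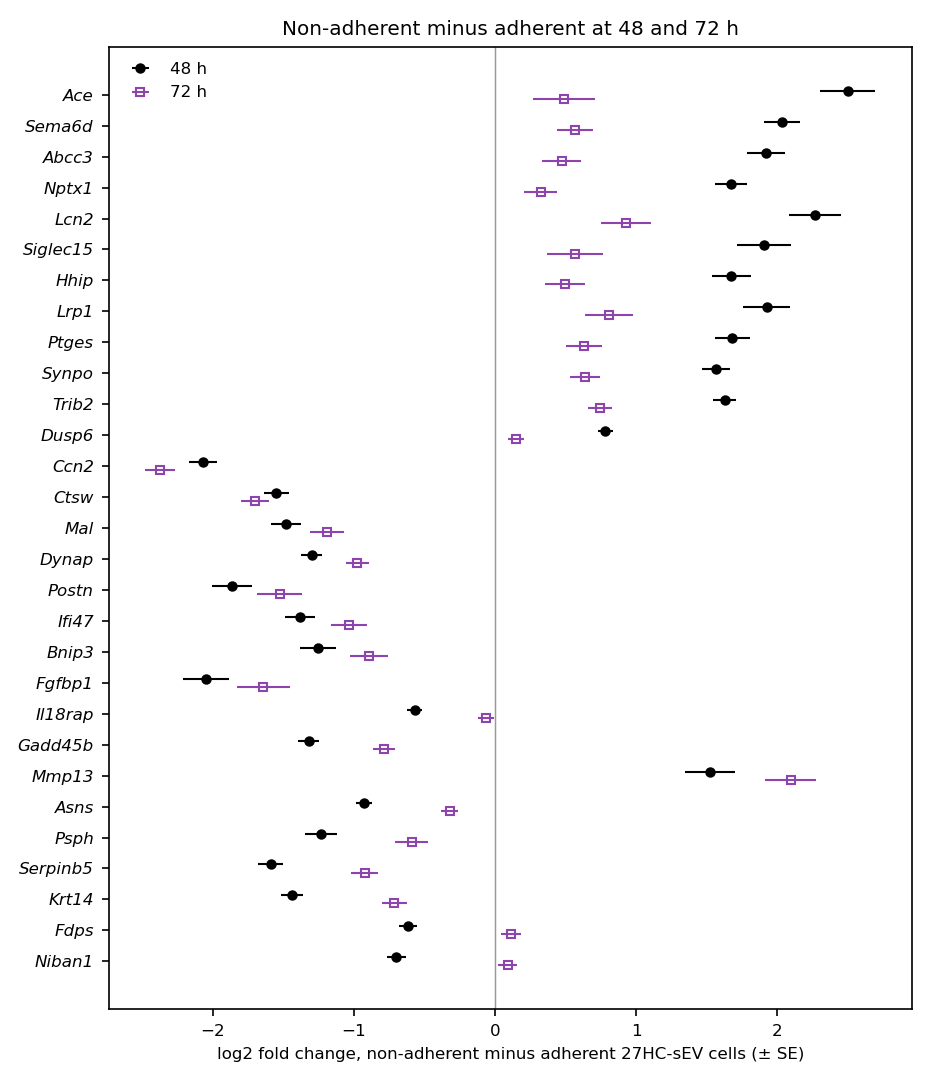
Log2 fold change of non-adherent over adherent 27HC-sEV cells at 48 h (filled circles) and 72 h (open squares), with bars of ± 1 SE, for the genes with the largest changes at 48 h and those leading the test between times, ordered by the difference between times. Ace and Sema6d lie closer to 0 at 72 h, while Ccn2 and Mmp13 lie farther from it, without passing the test of the difference.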

How the data were processed

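RNA of 4T1 cells was sequenced from polyadenylated libraries, per the labels' protocols. The authors deposited estimated counts per gene, unscaled per the file headers, of which 40.8% were not whole, and TMM-normalized log2 CPM for 13087 genes, which served in 1 alternative. The submitters' processing notes name Salmon 1.10.0, GRCm39 and mm39. How strand was treated is not given in the sources used here. Per the labels, the authors excluded non-adherent replicate 5 at 72 h as an outlier.

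The estimated counts were rounded, filtered with filterByExpr (minimum count 10, minimum total 15) and scaled by TMM. Of 39253 genes 13008 were tested. All 6 groups with counts (29 libraries) were fitted in 1 robust edgeR quasi-likelihood model (glmQLFit, then two-sided glmQLFTest). P-values were adjusted over all tested genes by Benjamini-Hochberg, and calls made under 0.05. Standard errors are the absolute log2 fold change over the square root of F. On simulated data of 13008 genes, 100 were changed by 0.5 and 100 by 1 (log2). Of these 77% and 99% were recovered, with 4 others called. The simulation held no length or GC dependence and far fewer changed genes than were called here. It therefore does not give the error rate of these results. DESeq2 was version 1.42.0, limma 3.58.1 and edgeR 4.0.16, under R 4.3.3. Transcript length and GC content came from the longest GENCODE M21 transcript (GRCm38) of a symbol, found for 12407 tested genes, and the offsets from a smooth fit on both in each library. Alternatives were RLE and upper-quartile factors, unrounded counts, DESeq2, limma-voom, limma-trend, a 1 CPM filter, no filter, a replicate term, only the compared groups, each library left out, and the offsets.

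Named genes are the 12 largest increases and decreases among called genes that had separated groups and reached a mean of 3 log2 CPM, without clone and predicted names, the 2 called genes with the smallest p per direction in each list of at least 5 tested genes, a set list of genes of attachment, EMT, death and sterols, and the 4 per sign with the smallest p for the difference between times, 183 in all. Some genes that the rule names are not reported here. The members, the 50 lists and the rule were chosen with earlier results of these data known. Nothing in the labels states that replicates came from separate cultures. The spread behind each p-value is therefore that of these libraries and may be technical.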

Additional observations from a re-analysis of the deposited data

Results flagged for a closer look

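The difference in log2 fold change between the times (72 h minus 48 h, non-adherent over adherent cells) was tested directly in edgeR, and it passed for 598 of 13008 genes (4.6%). Among 184 tested genes named above it passed for 74, with 49 negative and 25 positive values. Some of these genes were named for the largest changes at 48 h or the smallest p-values of this same test, so neither that share nor the signs are independent of the choice. Those of the largest increases at 48 h were -2.01 for Ace, -1.34 for Lcn2, -1.46 for Sema6d, -1.12 for Lrp1, -1.45 for Abcc3 and -1.34 for Siglec15, and -1.05 for Ptges, -1.18 for Hhip, -1.35 for Nptx1, -0.88 for Trib2 and -0.93 for Synpo. Among attachment and matrix genes the differences were -1.40 for Itga1, -0.67 for Itgb2, -0.84 for Itgb3, -0.70 for Itgb4, -0.60 for Tns4 and -0.52 for Ppl, and -0.76 for Lama5, -0.92 for Hspg2, -0.93 for Col5a1, -0.79 for Loxl3, -0.99 for Serpine2 and -0.22 for Vim. ERK-linked and early genes had -0.64 for Dusp6, -0.25 for Etv4, -1.63 for Egr3, -0.64 for Areg, -0.37 for Trib1 and -0.51 for Tnfaip2. The cell cycle genes had -0.37 for Ccnd1 and -0.39 for Cdkn1a, and the surface receptors -0.63 for Cd44, -1.03 for Lgr6 and -0.54 for Axl. The developmental genes had -0.63 for Notch2, -0.53 for Nrarp, -0.64 for Lrp5, -0.59 for Lrp6, -0.85 for Bmp7, -0.83 for Ltbp3, -0.55 for Foxc2 and -0.30 for Wwtr1. Transporters and lipid genes had -1.85 for Abca1, -0.48 for Abca2, -0.51 for Abca7, -0.28 for Acsl4 and -0.59 for Slc39a14, and the remaining negative values were -0.73 for Gpnmb and -0.57 for Creb3l2.

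Among the positive differences, stress genes had 0.60 for Asns, 0.64 for Psph, 0.68 for Ddit3, 0.30 for Ddit4, 0.51 for Trib3, 0.53 for Atf3 and 0.79 for Niban1, and 0.41 for Gadd45a, 0.53 for Gadd45b, 0.53 for Plk2, 0.43 for Bmf, 0.22 for Hsp90aa1 and 0.23 for Cat. Sterol and lipid genes had 0.73 for Fdps, 0.66 for Idi1, 0.26 for Hmgcs1, 0.21 for Me1 and 0.25 for Plin2. Immune genes had 0.85 for Isg15, 0.64 for Ccl5 and 0.51 for Il18rap, epithelial genes 0.72 for Krt14 and 0.66 for Serpinb5, and the snoRNA host genes 0.48 for Gas5 and 0.78 for Snhg12.

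In 34 of 372 groups of 5 libraries examined (9.14%), 1 library stood far from the other 4 by Dixon's test, which chance alone does in about 1 in 20 groups. Of these, 21 were in non-adherent library 4. It was low for Abcc3 (20.3 CPM), Axl (776 CPM), Cd44 (708 CPM), Col5a1 (33.1 CPM), Creb3l2 (19.4 CPM), Epcam (290 CPM), Hhip (47.6 CPM) and Itga1 (7.65 CPM), and for Itgb1 (978 CPM), Itgb3 (18.6 CPM), Itgb4 (120 CPM), Lcn2 (35.3 CPM), Ltbp3 (316 CPM), Ppl (56.9 CPM) and Slc39a14 (101 CPM). It was high for Dkc1 (131 CPM), Gas5 (178 CPM), Hey2 (0.16 CPM), Psmd8 (176 CPM), Psme1 (101 CPM) and Snhg12 (22.2 CPM). In genes higher in non-adherent cells the low values bring this library nearer to the adherent cells. The other non-adherent values were Aifm2 in library 2 (18.4 CPM, high), Foxc2 in library 2 (18.7 CPM, high) and Mylk in library 5 (2.5 CPM, high). In adherent cells they were Ccn2 in library 3 (106 CPM, low), Ccnd1 in library 5 (1004 CPM, high), Ctsw in library 2 (20.9 CPM, high), Hhip in library 1 (29.1 CPM, high) and Krt19 in library 3 (84.8 CPM, low), and Loxl3 in library 1 (9.32 CPM, high), Pgk1 in library 2 (1297 CPM, high), Psme1 in library 2 (149 CPM, high), Snai1 in library 1 (9.15 CPM, high) and Tspan14 in library 1 (49.5 CPM, high).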

How the results depend on the processing

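The count at 48 h (7033) was 5559 with length and GC offsets, 6390 without a filter, 7534 with only the groups compared, 7147 by DESeq2 and between 6847 and 7039 in the other alternatives that used all libraries. Without 1 library it ran from 6221 to 6969, with 2984 to 3322 genes higher and 3125 to 3647 lower. Of 178 called genes named above, 168 kept their direction and call in 20 alternatives and 154 also with the offsets, which ended 19 calls and turned 1 round (Flna). The offsets gave the other sign for Acadm (0.011), Flna (-0.22), Mylk (-0.033), Neat1 (-0.11) and Polr1a (-0.12). Whether length and GC dependence arose in the cells was not tested.

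The count of genes differing between times (598, with 154 positive and 444 negative) was less stable. With only the groups compared it was 1213 (356 positive and 857 negative). Positive calls numbered 281 by DESeq2, 360 with the offsets and 82 without a filter. Without 1 library the total ran from 350 to 853, with 92 to 226 positive and 258 to 627 negative, and was lowest without non-adherent library 1 at 72 h. Apart from fewer samples or genes in a fit, the cause was not tested.

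The labels do not say what a replicate number shares, and the main fit did not pair the samples. Deviations of same-numbered libraries correlated from -0.213 to 0.313, over 0.1 in 3 of 5, and 1 of 5 correlated best with its own number. So few values cannot show whether the samples were paired. With the replicate block the calls of Il1b (adjusted p = 0.059), Mylk (0.0531) and Neat1 (0.0506) were lost and no other call of a gene named above changed. In that fit 6847 genes were called at 48 h (3243 higher and 3604 lower), and between times 83 positive and 365 negative. Without a filter the calls of Bcl2l1, Polr1a and Snai1 were lost as well as those 3. Depth limited genes near or below 1 CPM, such as Hey2, Zeb1 and Il1b, and Salmon counts of near-identical copies are uncertain.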
